A study of Mus musculus with 3 samples.

Results

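The 10 genes described here are the colony-stimulating factors of the myeloid lineage, stem cell factor and the receptors of both. The ligand genes are *Csf1*, *Il34*, *Csf2*, *Csf3* and *Kitl*, and the receptor genes are *Csf1r*, *Csf2ra*, *Csf2rb*, *Csf3r* and *Kit*. They were taken by name, as a family chosen with earlier results of these data known, from the 32285 genes of the count tables, with symbols matched to Ensembl identifiers. All 10 were measured, with between 1424 UMIs for *Csf2* and 30134 for *Csf1r* over the cells kept, a UMI (unique molecular identifier) marking 1 captured mRNA molecule.

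Single-cell RNA sequencing was performed on dissociated wounds of skin, taken 3, 7 or 14 days after injury from mice of the C57BL/6J strain. The deposited design calls the wounds incisional, whereas the methods of the study describe punch wounds through the full thickness of the dorsal skin of male mice. Tissue of several wounds was pooled into the single library of each day, so the day and the library cannot be told apart and no test between days is possible. The libraries were made from unsorted cells after treatment with a lysis buffer and removal of dead cells and debris.

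Macrophage colony-stimulating factor (the product of *Csf1*) and interleukin 34 are separate ligands of 1 receptor tyrosine kinase, CSF1R, which macrophages, monocytes and Langerhans cells need. GM-CSF (*Csf2*) signals through a specific alpha chain (*Csf2ra*) and a beta chain (*Csf2rb*) that the receptors for interleukin 3 and interleukin 5 share, and G-CSF (*Csf3*) drives the production and release of neutrophils through its own receptor (*Csf3r*). Stem cell factor (*Kitl*) binds KIT, on which mast cells and melanocytes of the skin depend.

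The filter on cells (at least 500 UMIs, at least 200 genes and at most 10% mitochondrial UMIs) and the removal of called doublets left 4360 cells on Day 3, 19590 on Day 7 and 13510 on Day 14, with medians of 3513, 3223 and 5891 UMIs per cell. The cells fell into 31 clusters, which were grouped into classes by standard markers with no member of the family among them, and each class is called "-like" for that reason. The mesenchymal class is an exception. Its markers, *Slc26a7* and *Prlr* among them, came from the study's own cluster results on these same libraries. The Day 3 library held 503 fibroblast-like, 2689 macrophage-like, 873 neutrophil-like and 236 dendritic cell-like cells, but 13 endothelial cell-like, 10 pericyte-like and 1 epithelial cell-like cells. The Day 14 library held 21 neutrophil-like cells. Values given for these small groups stand with their cell numbers, and 2 clusters (18, 524 and 723 cells on Days 3, 7 and 14) matched no class under the marker rule and stay unnamed. One of them was led by *Retnla*, *Ear2* and *Lyz1*, and the other by *Hist1h1b*, *Retnla* and *Nusap1*, with the cell division genes *Birc5*, *Ube2c* and *Top2a* next. Between 19 and 111 barcodes were shared by each pair of libraries. The 80 ratios between libraries with at least 20 UMIs in each were recomputed without the 295 kept cells that carry such a barcode. Of these, 79 kept their direction, and the 21 past 2-fold among them all stayed past it.

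Levels are CPM, the UMIs of a gene per 1e6 UMIs of the cells summed. Intervals are 95% intervals, exact Poisson for CPM, exact conditional binomial for ratios and Clopper-Pearson for shares, and they cover counting error only. A ratio between days compares 2 libraries, not the days themselves, and is called past 2-fold at a log2 value of at least 1 or at most -1. A 3' assay does not give levels that can be compared between genes, so each gene is compared only with itself.

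The beta chain gene has a neighbour that is alike over part of its sequence. *Csf2rb* lies at chr15:78325752-78353847 on the plus strand of GRCm38, the build that GENCODE release M21 annotates. *Csf2rb2*, which encodes a beta chain specific to the interleukin 3 receptor, lies at chr15:78282507-78305721 on the minus strand, 20030 bases away. The first 120 coding bases of both are shown from the annotation to make this likeness visible where it is close, with the 4 bases that differ in capitals. The remaining 116 bases are equal (96.7%).

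Csf2rb: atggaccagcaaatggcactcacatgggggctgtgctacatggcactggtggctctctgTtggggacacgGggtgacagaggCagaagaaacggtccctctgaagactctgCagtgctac
Csf2rb2: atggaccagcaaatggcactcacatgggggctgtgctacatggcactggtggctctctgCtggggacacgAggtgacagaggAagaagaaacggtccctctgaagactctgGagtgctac

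Over the whole transcript, 892 of 4851 stretches of 50 bases in *Csf2rb* (18.4%) also occur in *Csf2rb2*. None of the 451 stretches in the last 500 bases, the end that a 3' assay reads, does so. The position of *Csf1r* is not given here. The 8 other members lie at chr3:107741048-107760469 (*Csf1*, minus strand), chr8:110741829-110805924 (*Il34*, minus), chr11:54247271-54249667 (*Csf2*, minus), chr11:98701263-98703629 (*Csf3*, plus), chr10:100015630-100100416 (*Kitl*, plus), chr19:61223957-61228429 (*Csf2ra*, minus), chr4:126024550-126044440 (*Csf3r*, plus) and chr5:75574916-75656722 (*Kit*, plus). *Csf2* lies 15635 bases from *Il3*, the gene of interleukin 3.

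Over all cells, the inflammatory ligands *Csf2* and *Csf3* and the receptors *Csf2rb* and *Csf3r* were lower on Day 7 than on Day 3 by more than 2-fold, and *Il34* was higher. The summed levels in a library mix the level within cells with the numbers of cells of each class, which the sections on single classes keep apart. From Day 3 to Day 7, 1 of 10 members was past 2-fold higher, where 12.4% of all genes with at least 20 UMIs were, and 4 of 10 were past 2-fold lower, where 8.5% of genes were. Of these, *Csf3r* was just under 2-fold (-0.997) without the 50 most abundant genes in the scaling. From Day 7 to Day 14, 0 of 10 members were past 2-fold higher (11.8% of genes) and 1 of 10, *Csf3r*, was lower (8.62% of genes). The median log2 ratio of the members was -0.51 from Day 3 to Day 7, beside -0.07 for all genes, and -0.30 from Day 7 to Day 14, beside -0.10.

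*Csf1*, the growth factor of macrophages, was read mainly in fibroblast-like cells, with neutrophil-like cells as a second source early on. Its level in fibroblast-like cells was 109 CPM on Day 3 (104 to 113), 102 CPM on Day 7 (99.5 to 104) and 133 CPM on Day 14 (131 to 136). The level was thus nearly the same in the first 2 libraries and highest in the last, with log2 ratios of -0.09 (-0.16 to -0.02) and 0.39 (0.34 to 0.43). Among the Day 14 clusters, the one led by *Cxcl13* and *Pi16* had the highest level, 187 CPM, which was above its Day 7 level by a log2 ratio of 0.29 (0.21 to 0.38). The cluster led by *Thbs4* and *Cilp*, which held 3656 fibroblast-like cells on Day 14 and 434 on Day 7, was at 122 CPM on both days, with a log2 ratio of 0.01 (-0.13 to 0.15), so the higher Day 14 level of the class was not found in it. The cluster led by *Tnn*, *Lrrc15* and *Acta2*, genes of contractile wound fibroblasts, had 61.9 CPM on Day 7 and 52.5 CPM on Day 14 (37.0 to 72.4), with the interval of the latter overlapping those of some other clusters.

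Neutrophil-like cells held 514 CPM of *Csf1* on Day 3 (474 to 557; 610 UMIs) and 346 CPM on Day 7 (315 to 379; 465 UMIs). The 21 such cells of Day 14 held 13 UMIs. The lower Day 7 level gave a log2 ratio of -0.57 (-0.75 to -0.40). The cells of the 2 days lay mostly in different clusters, of which 1 held 763 of the 873 cells on Day 3 and the other 1574 of the 1660 on Day 7. *Csf1* was at 490 and 314 CPM in the Day 3 cluster and at 768 and 349 CPM in the Day 7 cluster, the latter a log2 ratio of -1.14 (-1.49 to -0.78). Both clusters were thus lower on Day 7. With at least 500 genes per cell, which left 495 and 540 neutrophil-like cells, the ratio was -2.19, and with called doublets kept it was -1.07. *Csf1* UMIs were found in 25.9% of neutrophil-like cells on Day 3 and 17.6% on Day 7 (15.7% and 12.3% after thinning each cell to 500 UMIs; median depths of 1227 and 713 UMIs), against 1.71% and 1.74% of macrophage-like cells (0.372% and 0.433% thinned; 4029 and 2484 UMIs). Fibroblast-like cells held 74.7%, 87.8% and 94.3% of all *Csf1* UMIs on Days 3, 7 and 14. Neutrophil-like cells held 21.2% on Day 3 and 6.26% on Day 7. At a clustering resolution of 2, the Day 14 share of fibroblast-like cells was 83.4%, while that of unnamed cells went from 0.259% to 10.6%.

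Pericyte-like cells, which wrap small vessels, had 126 CPM of *Csf1* on Day 3 (88.8 to 174; 37 UMIs in 4 of 10 cells), 56.7 CPM on Day 7 (43.8 to 72.1) and 96.4 CPM on Day 14 (82.5 to 112), a log2 ratio of 0.77 (0.35 to 1.20) between the last 2. Day 7 was thus lower than Day 14. The place of Day 3 cannot be set, since 15 of its 37 UMIs lay in 1 cell, a spread that the interval does not cover. Endothelial cell-like cells had 52.5 CPM on Day 7 and 59.4 CPM on Day 14, within each other's intervals. Their blood vessel cluster, led by *Emcn*, had 59.3 and 82.9 CPM, a log2 ratio of 0.48 (0.01 to 0.96). The lymphatic cluster, led by *Ccl21a*, had 33.5 and 15.9 CPM (16 and 8 UMIs). A group of 33 basophil-like cells, 29 of them from Day 7, held 48 *Csf1* UMIs in 19 cells, or 1193 CPM (879 to 1581). These cells were shallow, with a median of 1006 UMIs, and the 4 basophil markers were read in few of the 33, *Mcpt8* in 11, *Cd200r3* in 9, *Ms4a2* in 7 and *Fcer1a* in 3. In the 17 mast cell-like cells described with *Kit*, the same genes were read in 1, 9, 13 and 7. The basophil-like name was given to all cells of the mast cell cluster with under 10 UMIs of 6 mast cell genes, without a rule on basophil markers. With at least 500 genes per cell, and at a clustering resolution of 0.5, there was no basophil-like class.

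*Il34*, the other ligand of CSF1R, was read in pericyte-like cells in every library and in epithelial cell-like and Schwann cell-like cells on Day 14. Its level in pericyte-like cells was 98.9 CPM on Day 3, 113 CPM on Day 7 (94.9 to 134) and 131 CPM on Day 14 (115 to 149). The 29 UMIs of Day 3 lay in 5 of 10 cells, with 16 of them in 1 cell. The levels of Days 7 and 14 lay close together, with a log2 ratio of 0.21 (-0.11 to 0.53). *Il34* UMIs were found in 42.5% and 39.3% of pericyte-like cells on Days 7 and 14 (6.63% and 8.14% thinned), against 0.144% and 0.358% of macrophage-like cells, whose median depths were 2484 and 3251 UMIs. Keratinocytes are known as the source of interleukin 34 in normal epidermis. On Day 14 the suprabasal cluster led by *Krtdap* had 67.5 CPM (56.9 to 79.5) and the basal cluster led by *Krt15* and *Krt14* had 12.1 CPM (8.32 to 17.0), so that the intervals did not overlap. Schwann cell-like cells of Day 14 had 41.6 CPM (26.4 to 62.4; 23 UMIs in 21 of 126 cells), and 4 of the 9 such cells of Day 7 carried an *Il34* UMI.

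In fibroblast-like cells, *Il34* was at 0.506 CPM on Day 3 (10 UMIs), 6.03 CPM on Day 7 (386 UMIs) and 6.86 CPM on Day 14 (486 UMIs). The Day 3 library stood apart as the lowest, and the log2 ratio from Day 3 to Day 7 was 3.57 (2.68 to 4.65). The clusters shared by both days gave the same direction. The cluster led by *Saa3* and *Cxcl5* went from 0.402 to 3.28 CPM (log2 ratio 3.03), and its proliferating counterpart, with *Ube2c* among its leading genes, from 0.635 to 6.28 CPM (3.30). The clusters with the highest levels were those led by *Cxcl13* and *Pi16* (12.7 CPM on Day 7 and 11.7 CPM on Day 14), by *Ptn* and *Kera* (11.3 CPM on Day 14) and by *Igfbp2* and *Tnmd* (10.9 CPM on Day 14). Fibroblast-like cells, at lower levels than pericyte-like cells but in greater number, held 70.2% of *Il34* UMIs on Day 7 and 50.9% on Day 14, and pericyte-like cells 24.0% and 24.3%.

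**Figure D1:**
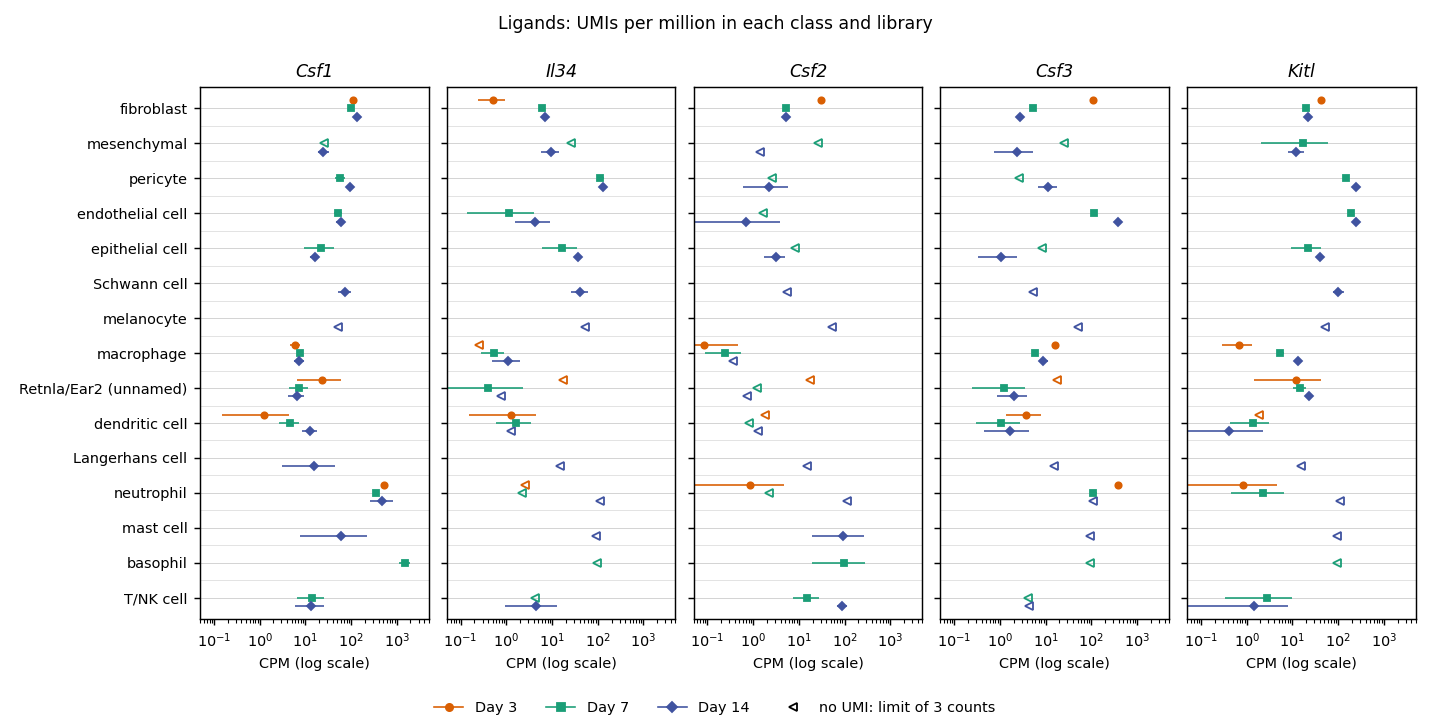
CPM of the 5 ligand genes (log axis) in each class, with 1 marker per library and bars for the exact Poisson 95% interval, for groups of at least 14 cells. Open triangles stand at the limit of 3 counts where no UMI was read. *Csf2* and *Csf3* of fibroblast-like cells are highest on Day 3 (30.8 and 108 CPM), while *Il34* is lowest there (0.506 CPM).

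*Csf2*, which encodes the cytokine GM-CSF, had 99.3% of its Day 3 UMIs in fibroblast-like cells. The level in these cells was 30.8 CPM on Day 3 (28.4 to 33.3; 608 UMIs), 5.19 CPM on Day 7 (4.65 to 5.78; 332 UMIs) and 5.31 CPM on Day 14 (4.79 to 5.87; 376 UMIs). Day 3 was high and the later libraries were alike, with log2 ratios of -2.57 (-2.77 to -2.37) and 0.03 (-0.18 to 0.25). Few cells carried the transcript. *Csf2* UMIs were found in 52 of 503 fibroblast-like cells on Day 3 (10.3%), in 2.66% on Day 7 and in 1.21% on Day 14 (0.994%, 0.256% and 0.239% thinned). The median depths of these cells were 38474, 10051 and 9882.5 UMIs, and 0 of 236, 0 of 1201 and 0 of 525 dendritic cell-like cells had a *Csf2* UMI, at medians of 7056.5, 3000 and 4510 UMIs. On Day 3, 1 cell held 62 of the UMIs and the 5 highest cells held 39.1%.

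The *Csf2* level differed between fibroblast-like clusters, and the difference between the days was not the same in all. In the *Saa3* and *Cxcl5* cluster it was 34.7 CPM on Day 3 and 9.45 CPM on Day 7 (log2 ratio -1.88), and in its proliferating counterpart 27.5 and 6.77 CPM (-2.02). In the cluster led by *Cxcl13* and *Pi16* it was 4.20 CPM on Day 7 (3.24 to 5.37) and 17.1 CPM on Day 14 (14.7 to 19.7), a log2 ratio of 2.02 (1.60 to 2.45). The cluster of *Thbs4* and *Cilp*, which held most Day 14 cells, had 0.512 CPM on Day 7 and 3.71 CPM on Day 14, a log2 ratio of 2.86 (0.98 to 5.92) that rested on 2 and 153 UMIs. The level over the whole class was thus alike on Days 7 and 14, while both of these clusters were higher on Day 14. The *Ptn* and *Kera* cluster had 13.4 CPM on Day 14.

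T and NK cell-like cells had 15.3 CPM of *Csf2* on Day 7 (7.63 to 27.4; 11 UMIs in 4 of 389 cells) and 89.9 CPM on Day 14 (68.8 to 115; 61 UMIs in 10 of 314 cells). The log2 ratio was 2.56 (1.62 to 3.63), but 1 Day 14 cell held 32 of the UMIs (52.5%). That cell was the single *Csf2* cell among 66 cells of the cluster led by *Cd3g* and *Trdc*, a gene of gamma-delta T cells. Without it, the Day 14 level was 43.0 CPM (29 UMIs). Among the genes of the wider pathway, *Il5*, a T cell cytokine that signals through the same beta chain, had 13.9 CPM on Day 7 (10 UMIs) and 63.4 CPM on Day 14 (43 UMIs) in these cells. From Day 7 to Day 14, *Csf2* was the 1 member of 5 with at least 20 UMIs that was past 2-fold higher in T and NK cell-like cells, where 7.59% of genes were, and 0 of 5 were past 2-fold lower, where 8.55% were.

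*Csf3*, the gene of the neutrophil growth factor G-CSF, had 3 main sources, which differed by library. In fibroblast-like cells the level was 108 CPM on Day 3 (103 to 112; 2125 UMIs), 5.36 CPM on Day 7 (4.81 to 5.96; 343 UMIs) and 2.74 CPM on Day 14 (2.37 to 3.15; 194 UMIs). Each later library was lower, with log2 ratios of -4.33 (-4.50 to -4.16) and -0.97 (-1.23 to -0.71), and the intervals of the 3 levels did not overlap. The *Saa3* and *Cxcl5* cluster had 167 CPM on Day 3 and 11.6 CPM on Day 7 (log2 ratio -3.85), and its proliferating counterpart 49.0 and 3.97 CPM (-3.63). Between Days 7 and 14 the intervals within the 2 clusters compared included 0. The log2 ratio was 0.09 (-0.70 to 0.99) in the *Thbs4* and *Cilp* cluster, which held 157 of the 194 Day 14 UMIs, and -0.35 (-1.29 to 0.55) in the *Cxcl13* and *Pi16* cluster. The *Saa3* and *Cxcl5* cluster, with 265 of the 343 Day 7 UMIs, had 1909 cells on Day 7 and 54 on Day 14. *Csf3* UMIs were found in 18.7% of fibroblast-like cells on Day 3, 1.68% on Day 7 and 0.943% on Day 14 (3.78%, 0.144% and 0.0703% thinned), against 0.847%, 0.333% and 0.381% of dendritic cell-like cells. As with *Csf2*, the UMIs were concentrated, and on Day 3 the 5 highest of the 503 cells held 23.1% of them.

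Neutrophil-like cells, which carry the G-CSF receptor, also held *Csf3* UMIs. Their level was 388 CPM on Day 3 (353 to 425; 460 UMIs) and 111 CPM on Day 7 (93.7 to 130; 149 UMIs), with no UMI in the 21 cells of Day 14, which allows a level of up to 112 CPM. Day 7 was lower, with a log2 ratio of -1.81 (-2.08 to -1.54). The ratio was -2.67 with at least 500 genes per cell, -2.22 with called doublets kept and -1.96 (-2.49 to -1.40) within the cluster that held most Day 7 neutrophil-like cells. The cluster of most Day 3 cells had 389 CPM on Day 3 (353 to 428) and 269 CPM on Day 7 (182 to 384; 30 UMIs in 86 cells), so that its intervals overlapped. In macrophage-like cells the level was 16.4 CPM on Day 3, 5.92 CPM on Day 7 and 8.98 CPM on Day 14. Within the macrophage-like cluster led by *Chil3* and *Arg1*, which held 2098 of the 2689 such cells of Day 3, the level was 18.2 CPM on Day 3 and 17.7 CPM on Day 7. The *Mmp12* and *Arg1* cluster, with 316 cells on Day 3 and 3969 on Day 7, went from 12.1 to 2.93 CPM (11 and 31 UMIs), a log2 ratio of -2.04 (-3.07 to -0.90), so one cluster followed the class and the other did not.

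Endothelial cell-like cells had 117 CPM of *Csf3* on Day 7 (101 to 134; 209 UMIs in 234 cells) and 375 CPM on Day 14 (344 to 408; 537 UMIs in 238 cells), and the 13 such cells of Day 3 held 3 UMIs. The log2 ratio from Day 7 to Day 14 was 1.68 (1.45 to 1.92), and *Csf3* was the 1 of 7 members past 2-fold higher in this class, where 5.76% of genes were. The blood vessel cluster led by *Emcn* and *Selp* had 159 CPM on Day 7 and 528 CPM on Day 14 (log2 ratio 1.73), and the lymphatic cluster led by *Ccl21a* and *Prox1* had no *Csf3* UMI among its 54 cells of Day 7 and 47 UMIs in 9 of its 49 cells of Day 14. That is 93.4 CPM (68.6 to 124), with 20 of the 47 UMIs in 1 cell. The share of cells with a *Csf3* UMI was 16.2% on Day 7 and 34.0% on Day 14 (4.70% and 11.3% thinned), and the 5 highest cells held 39.7% and 31.5% of the UMIs. These cells held 24.5% of all *Csf3* UMIs on Day 7 and 63.3% on Day 14, while the part of fibroblast-like cells was 75.9%, 40.2% and 22.9% on Days 3, 7 and 14. The summed level over all cells was 8.52 CPM on Day 7 and 8.71 CPM on Day 14, a log2 ratio of 0.03 (-0.11 to 0.17), although its sources differed.

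*Kitl*, the gene of stem cell factor, was read in the cells of vessel walls and in fibroblast-like cells. Endothelial cell-like cells had 193 CPM on Day 7 (173 to 214) and 244 CPM on Day 14 (219 to 271), a log2 ratio of 0.34 (0.12 to 0.56). The level was 256 and 375 CPM in the *Emcn* and *Selp* cluster and 18.9 and 1.99 CPM (9 and 1 UMIs) in the lymphatic cluster. Pericyte-like cells had 153 CPM on Day 7 (131 to 177) and 246 CPM on Day 14 (224 to 271), a log2 ratio of 0.69 (0.43 to 0.95). Both classes were thus higher on Day 14 than on Day 7. On Day 3, the 13 endothelial cell-like cells had 332 CPM (258 to 421; 68 UMIs), with an interval that overlapped that of Day 14. Those 68 UMIs lay in 3 cells, with 51 of them in 1 cell, a spread that the interval does not cover. The 10 pericyte-like cells of Day 3 had 40.9 CPM (21.1 to 71.5; 12 UMIs in 5 cells), the lowest value of the 3 libraries. On Day 14 Schwann cell-like cells had 101 CPM (76.5 to 132) and epithelial cell-like cells 40.0 CPM (34.6 to 46.0).

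In fibroblast-like cells, *Kitl* was at 41.8 CPM on Day 3 (39.0 to 44.7), 19.7 CPM on Day 7 (18.6 to 20.8) and 22 CPM on Day 14 (20.9 to 23.1). Day 3 was the highest, with a log2 ratio of -1.09 (-1.21 to -0.96) to Day 7. Without the 50 most abundant genes of the class in the scaling the ratio was -0.86, under 2-fold, and within the clusters shared by both days the levels were 40.7 and 23.4 CPM, and 43.2 and 23.3 CPM. In macrophage-like cells *Kitl* was low, at 0.670 CPM on Day 3 (8 UMIs), 5.47 CPM on Day 7 (134 UMIs) and 13.6 CPM on Day 14 (115 UMIs). From Day 3 to Day 7 the *Mmp12* and *Arg1* cluster had a log2 ratio of 0.99 (-0.95 to 4.07). The *Chil3* and *Arg1* cluster had 0.510 and 3.27 CPM (5 and 7 UMIs). From Day 7 to Day 14 the ratio was 0.95 in the *Mmp12* and *Arg1* cluster and 0.77 in that led by *Slamf7*. It was 0.51 in that led by *Cbr2* and 2.38 in that led by *Ly6c2* (9 and 12 UMIs). The summed level of the 8 fibroblast markers in macrophage-like cells was also higher in the later libraries, at 425, 3932 and 5775 CPM, and their part in this result was not tested. Per 1000 fibroblast marker UMIs, macrophage-like cells had 1.58, 1.39 and 2.35 *Kitl* UMIs and fibroblast-like cells 0.613, 0.17 and 0.155.

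From Day 3 to Day 7, 2 of 10 members were past 2-fold higher in fibroblast-like cells (*Il34* and *Kit*, where 12.6% of genes were), and 4 of 10 were past 2-fold lower (*Csf2*, *Csf3*, *Kitl* and *Csf1r*, where 10.2% of genes were). *Kit* had 4 and 28 UMIs in these cells, so that the interval of its log2 ratio of 1.11 reached from -0.40 to 3.08. From Day 7 to Day 14, 0 of 10 were past 2-fold higher (7.86% of genes) and 3 of 10 lower (*Csf2ra*, *Csf2rb* and *Csf3r*, where 10.3% of genes were). The call was lost for *Csf2ra* under 5 of the 10 alternatives (log2 ratio up to -0.72) and for *Csf2rb* under 3 (up to -0.78). Those 3 receptor genes were at 9.22, 3.30 and 2.63 CPM on Day 7 and at 4.50, 1.48 and 0.212 CPM on Day 14 in fibroblast-like cells. The summed level of the macrophage markers in the same cells was 300.2 CPM on Day 7 and 95.6 CPM on Day 14, and its part in this was not tested.

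**Figure D2:**
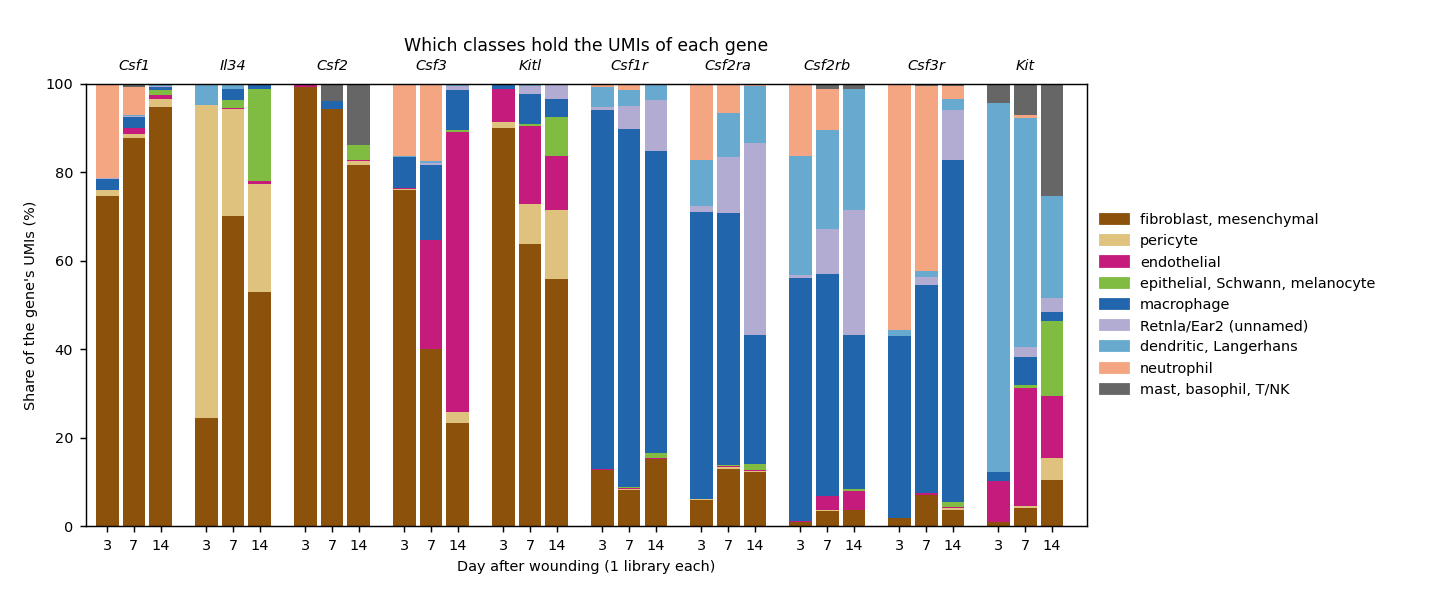
Share of each gene's UMIs (percent) held by the classes, as stacked bars for Days 3, 7 and 14, with 1 library each. Fibroblast-like cells hold most *Csf3* UMIs on Day 3 (75.9%) and endothelial cell-like cells on Day 14 (63.3%), and *Csf1* lies mainly in fibroblast-like cells (74.7% to 94.3%).

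*Csf1r*, which encodes the receptor for CSF-1 and interleukin 34, had most of its UMIs in macrophage-like cells in all libraries (81.1%, 81.0% and 68.3% on Days 3, 7 and 14). Its level there was 417 CPM on Day 3 (405 to 428), 511 CPM on Day 7 (502 to 520) and 690 CPM on Day 14 (673 to 708). Each later library was higher, with log2 ratios of 0.29 (0.25 to 0.34) and 0.43 (0.39 to 0.48). The share of macrophage-like cells with a *Csf1r* UMI was 65.5%, 63.2% and 78.3% (16.4%, 21.3% and 28.5% thinned), against 12.8% of endothelial cell-like cells on Day 7 and 3.78% on Day 14 (1.28% and 0.840% thinned; median depths of 6101 and 3850.0 UMIs).

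The clusters of macrophage-like cells differed in *Csf1r*. The cluster led by *Cbr2*, *Cd163* and *Lyve1*, genes of tissue-resident macrophages, had 525 CPM on Day 3, 662 CPM on Day 7 and 776 CPM on Day 14. In the cluster led by *Slamf7* and *C1qc* there were 646 CPM on Day 7 and 728 CPM on Day 14, when the cluster held 1413 of 2513 macrophage-like cells. The *Mmp12* and *Arg1* cluster had 253, 410 and 443 CPM. In the cluster led by *Ly6c2* and *Chil3* the levels were 383, 561 and 504 CPM, so that Day 14 was lower than Day 7 there, with a log2 ratio of -0.16 (-0.29 to -0.02). The *Chil3* and *Arg1* cluster had 424 CPM on Day 3 and 400 CPM on Day 7, a log2 ratio of -0.08 (-0.19 to 0.02), so the higher level of the class on Day 7 was not found in it. Langerhans cell-like cells, found almost only on Day 14, had 666 CPM in 40 cells (557 to 791), with a *Csf1r* UMI in 37 of them.

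In dendritic cell-like cells *Csf1r* was at 172 CPM on Day 3 (153 to 194), 150 CPM on Day 7 (138 to 163) and 63.1 CPM on Day 14 (53.5 to 74.0). Day 14 was the lowest, with a log2 ratio of -1.25 (-1.52 to -0.99), but -0.28 when cells were clustered at a resolution of 0.5, which moved cells of the unnamed clusters into this class. The unnamed clusters had 325 CPM on Day 7 and 247 CPM on Day 14. In neutrophil-like cells it was at 38.8 CPM on Day 3 (46 UMIs) and 119 CPM on Day 7 (160 UMIs), a log2 ratio of 1.62 (1.14 to 2.12), or 2.38 with at least 500 genes per cell. Within the cluster of most Day 7 neutrophil-like cells the ratio was 1.09 (-0.07 to 2.56), from 6 and 151 UMIs, and its interval included 0. The cluster of most Day 3 cells had 37 and 80.8 CPM (40 and 9 UMIs). The macrophage markers, *Lyz2* among them, which neutrophils also express, summed to 6567 CPM in the neutrophil-like cells of Day 3 and 5272 CPM in those of Day 7.

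Fibroblast-like cells held 12.8%, 8.16% and 15% of *Csf1r* UMIs on Days 3, 7 and 14. Their level was 39.8 CPM on Day 3 (37.1 to 42.7; 786 UMIs), 19.7 CPM on Day 7 (18.6 to 20.8; 1260 UMIs) and 18.1 CPM on Day 14 (17.2 to 19.2; 1284 UMIs). Day 3 was the highest, with a log2 ratio of -1.01 (-1.14 to -0.88), which was -0.26 with called doublets kept. The 10 macrophage markers summed to 57.4, 300.2 and 95.6 CPM in these cells. Per 1000 UMIs of the 10 macrophage markers, macrophage-like cells had 41.5, 33.7 and 29.1 *Csf1r* UMIs on Days 3, 7 and 14. Fibroblast-like cells had 693 on Day 3 (646 to 743), 65.6 on Day 7 (62.0 to 69.3) and 190 on Day 14 (180 to 200), so the ratio was above that of macrophage-like cells in every library, and by the least on Day 7.

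Of the 1284 Day 14 UMIs of *Csf1r* in fibroblast-like cells, 657 lay in 1 cluster. The cluster led by *Igfbp2* and *Tnmd*, the latter a gene of tendon and ligament cells, had 48.7 CPM (45.0 to 52.5), with 657 UMIs in 411 of 1487 cells and 495 *Csf1r* UMIs per 1000 macrophage marker UMIs. The *Thbs4* and *Cilp*, *Cxcl13* and *Pi16*, and *Ptn* and *Kera* clusters of Day 14 had 11.2, 9.70 and 4.80 CPM. The macrophage markers summed to 98.2, 82.8, 93.6 and 81.9 CPM in these 4 clusters in the same order. A shallow cluster led by *Saa3* and *Apod* (399 cells with a median of 1102 UMIs) had 27.4 CPM, with macrophage markers at 533 CPM and 51.4 *Csf1r* UMIs per 1000 of theirs. The *Tnn* and *Lrrc15* cluster (87 cells) had 27 CPM with the markers at 209 CPM, and the *Saa3* and *Cxcl5* cluster (54 cells) 13 CPM with the markers at 78 CPM.

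**Figure D3:**
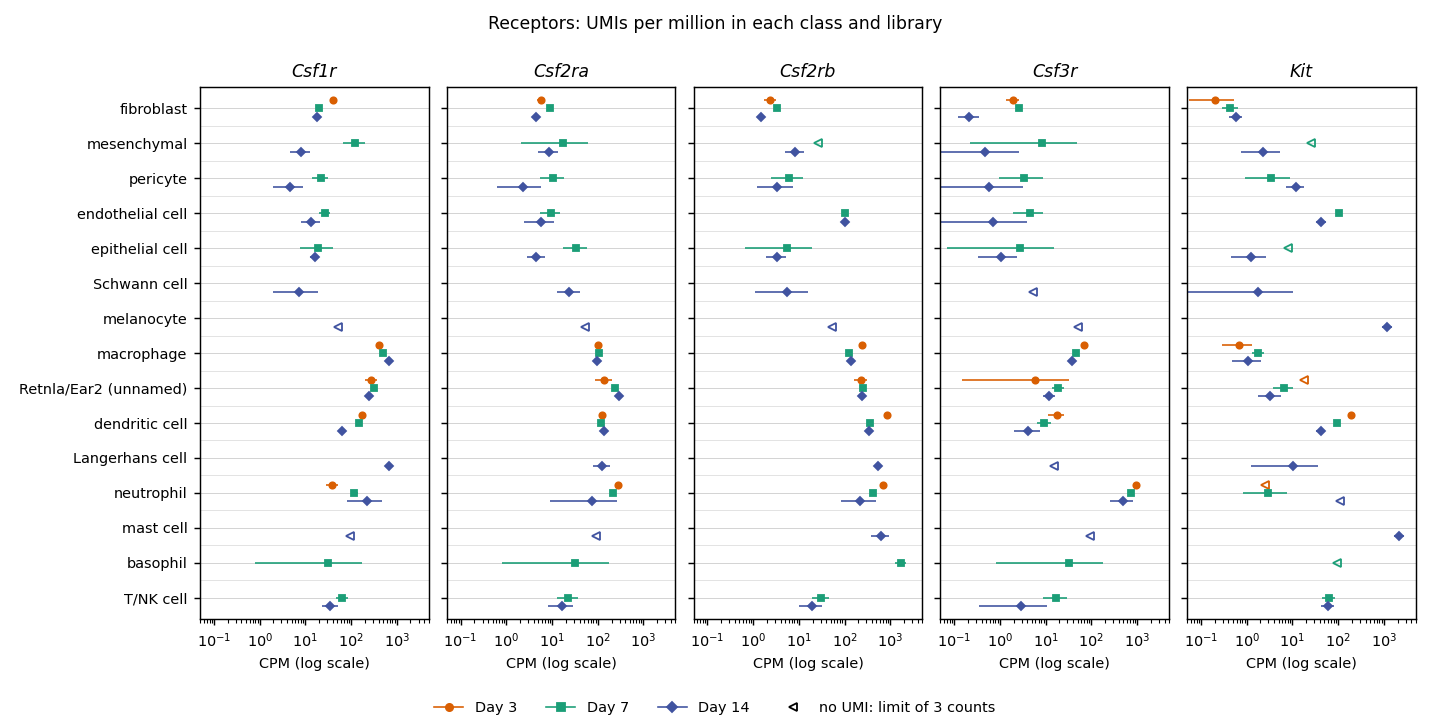
CPM of the 5 receptor genes (log axis) in each class, with 1 marker per library and bars for the exact Poisson 95% interval, for groups of at least 14 cells. Open triangles stand at the limit of 3 counts where no UMI was read. *Csf1r* of macrophage-like cells lies between 417 and 690 CPM and *Csf3r* of neutrophil-like cells between 484 and 946 CPM.

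*Csf2ra*, the ligand-specific chain of the GM-CSF receptor, was read in macrophage-like, dendritic cell-like, neutrophil-like and Langerhans cell-like cells, with 0 UMIs in the 17 mast cell-like and 1 UMI in the 33 basophil-like cells. In macrophage-like cells it was at 103 CPM on Day 3, 106 CPM on Day 7 and 94.8 CPM on Day 14. In dendritic cell-like cells it was at 123, 120 and 140 CPM. The log2 ratios lay between -0.16 and 0.21 in both classes, so the libraries differed little there. Neutrophil-like cells had 274 CPM on Day 3 (245 to 305) and 214 CPM on Day 7 (190 to 240), a log2 ratio of -0.36 (-0.59 to -0.12). Within the cluster of most Day 7 neutrophil-like cells the ratio was 0.10 (-0.54 to 0.81), so the lower level of the class was not found in it. The macrophage-like cluster led by *Ly6c2* and *Chil3*, genes of inflammatory monocytes, had 89.8 CPM on Day 3 (61.0 to 128), 181 CPM on Day 7 (169 to 194) and 128 CPM on Day 14 (108 to 151). Day 7 was the highest there, with a log2 ratio of 1.01 (0.50 to 1.58) over Day 3, and over all cells the ratio from Day 7 to Day 14 was -0.69 (-0.75 to -0.62). The unnamed clusters, both with *Retnla* and *Ear2* among their leading genes, had 234 CPM on Day 7 (215 to 254) and 298 CPM on Day 14 (282 to 316), and held 43.3% of all *Csf2ra* UMIs on Day 14. In them 0 of 7 members were past 2-fold higher from Day 7 to Day 14, where 2.5% of genes were, and 0 of 7 lower, where 8.18% were. At a resolution of 0.5 this share was 6.29%, while that of dendritic cell-like cells went from 12.1% to 47.0%.

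*Csf2rb*, the shared beta chain, was, among classes of at least 50 cells, highest in dendritic cell-like and neutrophil-like cells of Day 3. Dendritic cell-like cells had 865 CPM on Day 3 (820 to 911; 1399 UMIs in 236 cells), 359 CPM on Day 7 (340 to 378) and 349 CPM on Day 14 (325 to 373). Day 3 stood apart and the later libraries were alike, with log2 ratios of -1.27 (-1.38 to -1.16) and -0.04 (-0.17 to 0.09). The cluster led by *Cd209a*, a gene of conventional dendritic cells, had 938, 360 and 379 CPM, and the cluster led by *Ccl22* and *Ccr7*, genes of migratory dendritic cells, had 599.6, 378 and 240.2 CPM. The share of dendritic cell-like cells with a *Csf2rb* UMI was 80.1%, 50.7% and 57.3% (26.7%, 14.4% and 15.6% thinned), against 5.57%, 2.93% and 1.28% of the deeper fibroblast-like cells. From Day 3 to Day 7, *Csf2rb* was the 1 of 5 members past 2-fold lower in dendritic cell-like cells, where 7.45% of genes were, and 0 of 5 were past 2-fold higher, where 9.09% were.

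In macrophage-like cells *Csf2rb* was at 239 CPM on Day 3 (230 to 248), 122 CPM on Day 7 (118 to 127) and 141 CPM on Day 14 (134 to 150), with log2 ratios of -0.97 and 0.21. Within single clusters the ratio from Day 3 to Day 7 was smaller. It was -0.09 in the *Mmp12* and *Arg1* cluster (104 and 98.0 CPM), -0.35 in the *Chil3* and *Arg1* cluster (265 and 208 CPM), 0.26 in the *Cbr2* and *Cd163* cluster (53.6 and 64.1 CPM) and -0.56 in the *Ly6c2* and *Chil3* cluster (270 and 183 CPM). The *Chil3* and *Arg1* cluster held 2098 of 2689 macrophage-like cells on Day 3 and 789 of 9001 on Day 7.

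Neutrophil-like cells had 707 CPM of *Csf2rb* on Day 3 (660 to 757) and 410 CPM on Day 7 (376 to 445), a log2 ratio of -0.79 (-0.95 to -0.63). The ratio was -2.50 with at least 500 genes per cell and 0.33 (-0.18 to 0.88) within the cluster of most Day 7 neutrophil-like cells, so its direction was not the same in that cluster. In the cluster of most Day 3 cells the levels were 745 CPM (694 to 798) and 547 CPM (419 to 703; 86 cells), in the direction of the class. Endothelial cell-like cells had 104 CPM on Day 7 and 102 CPM on Day 14, and the level was 139 and 151 CPM in the *Emcn* and *Selp* cluster and 6.29 and 11.9 CPM (3 and 6 UMIs) in the lymphatic cluster. The 40 Langerhans cell-like cells of Day 14 had 534 CPM (437 to 646), and the 33 basophil-like cells had 64 UMIs in 24 cells, or 1590.0 CPM (1225 to 2030). The neighbour gene *Csf2rb2* had its own pattern. In dendritic cell-like cells it was at 69.2, 57.1 and 27.2 CPM on Days 3, 7 and 14, with log2 ratios of -0.28 and -1.07.

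*Csf3r*, which encodes the G-CSF receptor, was read in neutrophil-like cells, with 55.7%, 41.7% and 3.07% of its UMIs on Days 3, 7 and 14, and in macrophage-like cells, with 41%, 47% and 77.4%. The part of neutrophil-like cells was thus the larger on Day 3 alone. Neutrophil-like cells had 946 CPM on Day 3 (891 to 1003), 750 CPM on Day 7 (705 to 798) and, in 21 cells, 484 CPM on Day 14 (258 to 827). The log2 ratio from Day 3 to Day 7 was -0.33 (-0.46 to -0.21), but 0.25 (-0.11 to 0.63) within the cluster of most Day 7 neutrophil-like cells and -2.56 with at least 500 genes per cell. The cluster of most Day 3 cells had 975 CPM on Day 3 (917 to 1036) and 601 CPM on Day 7 (466 to 764; 86 cells), in the direction of the class. The fibroblast markers in neutrophil-like cells, at 842 CPM on Day 3 and 10207 CPM on Day 7, add to the UMIs that these levels are scaled by. Their part in the ratios was not tested. Macrophage-like cells had 69.2 CPM on Day 3, 46.4 CPM on Day 7 and 38.7 CPM on Day 14, and the 8 neutrophil markers summed to 176, 115 and 29.2 CPM in them. *Csf3r* UMIs were found in 55.1% and 41.7% of neutrophil-like cells on Days 3 and 7 (36.9% and 31.0% thinned) and in 22.9% and 11.2% of macrophage-like cells (3.57% and 2.32% thinned). The level over all cells was 57.3 CPM on Day 3, 24.2 CPM on Day 7 and 4.35 CPM on Day 14. Neutrophil-like cells numbered 873, 1660 and 21, which is 20.02%, 8.47% and 0.155% of the cells in each library. Their share of cells was thus lower in each later library, as was the level over all cells. The part of this share in that level was not tested.

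In neutrophil-like cells from Day 3 to Day 7, 1 of 6 members was past 2-fold higher (*Csf1r*, where 20.2% of genes were) and 1 of 6 lower (*Csf3*, where 7.83% of genes were). In macrophage-like cells from Day 3 to Day 7, 2 of 8 were past 2-fold higher (*Kitl* and *Kit*, where 12.1% of genes were) and 1 of 8 lower (*Csf3*, where 5.1% of genes were). From Day 7 to Day 14, 2 of 9 were higher (*Kitl* and *Il34*, where 5.4% of genes were) and 0 of 9 lower (6.41% of genes). *Il34* rested on 13 and 9 UMIs in these cells, and *Kit* on 8 and 44.

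*Kit*, the receptor of stem cell factor, was read at its highest in 2 small groups, mast cell-like and melanocyte-like cells. The mast cell cluster held 17 cells with at least 37 UMIs of 6 mast cell genes, and 33 cells with at most 2, so no cell lay near the limit of 10 that separated them. *Kit* UMIs were found in 17 of 17 mast cell-like cells, with 88 UMIs or 2153 CPM (1727 to 2653), and in 0 of the 33 basophil-like cells, which allows a share of up to 9.09%. That limit is on cells with a captured *Kit* UMI, at a median of 1006 UMIs per cell, and not on cells that express the gene. *Csf2rb* was read in 14 of the 17 mast cell-like cells and 24 of the 33 basophil-like cells. The Schwann cell cluster likewise held 16 melanocyte-like cells with at least 12 UMIs of 5 melanocyte genes and 135 cells with at most 2. *Kit* was read in 14 of the 16, with 73 UMIs or 1201 CPM (941 to 1509), and the 135 Schwann cell-like cells held 1 *Kit* UMI. Both splits were made after the clusters had been seen.

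**Figure D4:**
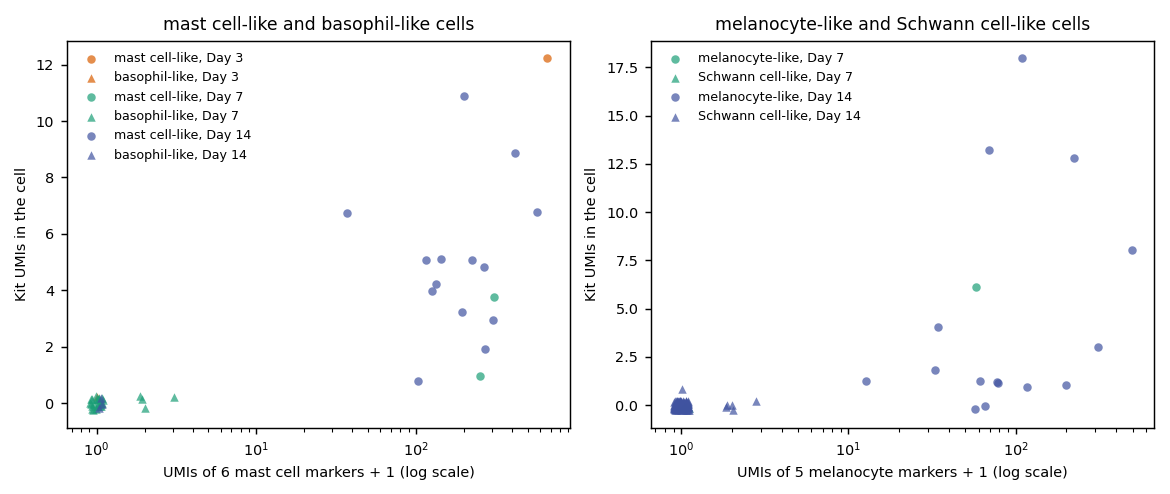
*Kit* UMIs of single cells against the summed UMIs of 6 mast cell markers (left) and 5 melanocyte markers (right, log axes with 1 added), coloured by day, with points moved slightly at random so that overlapping cells can be seen. All 17 mast cell-like cells and 14 of 16 melanocyte-like cells carry *Kit* UMIs, while 0 of 33 basophil-like and 1 of 135 Schwann cell-like cells do.

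Dendritic cell-like cells held most *Kit* UMIs early on. Their level was 193 CPM on Day 3 (172 to 215; 312 UMIs), 97.0 CPM on Day 7 (87.2 to 108; 360 UMIs) and 41.4 CPM on Day 14 (33.6 to 50.4; 99 UMIs). Each later library was lower, with log2 ratios of -0.99 (-1.21 to -0.77) and -1.23 (-1.56 to -0.90). In the cluster led by *Cd209a* the levels were 186, 112 and 49.0 CPM, and the cluster led by *Ccl22* and *Ccr7* had 243, 81.1 and 17.6 CPM, in the same order of days. *Kit* UMIs were found in 45.8%, 20.1% and 12.2% of dendritic cell-like cells (9.32%, 4.58% and 1.71% thinned), against 0.26%, 0.4% and 0.239% of macrophage-like cells. From Day 7 to Day 14, 3 of 6 members were past 2-fold lower in dendritic cell-like cells (*Kit*, *Csf1r* and *Csf3r*, where 13.1% of genes were) and 1 of 6 higher (*Csf1*, 17 and 30 UMIs, where 4.17% of genes were). *Csf3r* rested on 34 and 10 UMIs, and its log2 ratio in the cluster led by *Cd209a* was -0.65 (-1.90 to 0.50). One Day 14 cell held 10 of those 30 *Csf1* UMIs. The 8 fibroblast markers summed to 3432 and 6721 CPM in these cells, with 1.33 (0.777 to 2.14) and 1.87 (1.26 to 2.66) *Csf1* UMIs per 1000 of theirs, and their part in this was not tested.

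Endothelial cell-like cells had 103 CPM of *Kit* on Day 7 (88.9 to 119; 185 UMIs) and 43.3 CPM on Day 14 (33.2 to 55.5; 62 UMIs). The log2 ratio was -1.25 (-1.69 to -0.83), and the *Emcn* and *Selp* cluster alone gave 135 and 63.5 CPM (-1.09). As the mean of per-cell CPM the ratio of the class was -0.91, under 2-fold. The 13 cells of Day 3 had 34 UMIs, or 166 CPM (115 to 232), with 22 of them in 1 cell. *Kit* and *Csf1r* were the 2 of 7 members past 2-fold lower in this class, where 11.2% of genes were. The macrophage markers summed to 641 and 434 CPM in it, with 41.8 (30.8 to 55.4) and 30.6 (18.4 to 47.8) *Csf1r* UMIs per 1000 of theirs, intervals that hold the ratios of macrophage-like cells on the same days (33.7 and 29.1). T and NK cell-like cells had 62.5 CPM on Day 7 and 59.0 CPM on Day 14, a log2 ratio of -0.09 (-0.74 to 0.56), but 1.39 with at least 500 genes per cell and 1.22 at a clustering resolution of 0.5. Neither of these settings gave a separate mast cell-like class, and at a resolution of 0.5 the part of Day 14 *Kit* UMIs held by mast cell-like cells went from 16.2% to 0, while that of T and NK cell-like cells was larger by the same 16.2 points. Pericyte-like cells had 4 UMIs on Day 7 and 21 UMIs on Day 14, each in a different cell, and 2 of 6 members (*Csf3* and *Kit*) were past 2-fold higher in them, where 7.47% of genes were, and 1 of 6 lower (*Csf1r*, where 14.1% of genes were). *Csf3* had no UMI in the Day 7 pericyte-like cells and 20 on Day 14, so it was at least 4.38-fold higher against the limit of 3 counts. Those 20 UMIs lay in 5 of 430 cells, with 7 in 1 cell, and the 10 cells of Day 3 held 10 UMIs, with 9 in 1 cell. For *Csf1r*, the macrophage markers summed to 459.5 and 175 CPM in pericyte-like cells on Days 7 and 14, with 46.7 (30.2 to 69.0) and 25.7 (11.1 to 50.7) *Csf1r* UMIs per 1000 of theirs, intervals that again hold the ratios of macrophage-like cells. In the mesenchymal cluster led by *Slc26a7* and *Prlr*, with 63 cells on Day 7 and 724 on Day 14, *Csf1* and *Il34* had no UMI on Day 7. The limit of 3 counts in those cells is 25.6 CPM, above the Day 14 levels of 24.7 CPM (53 UMIs) and 9.31 CPM (20 UMIs), so neither can be called higher, and 21.6% of genes were past 2-fold higher there with such zeros counted. *Csf1r* (119.6 and 7.91 CPM; 14 and 17 UMIs) and *Csf2ra* (17.1 and 8.38 CPM; 2 and 18 UMIs) were the 2 of 5 members past 2-fold lower, where 8.55% were, and the interval of the latter (-3.09 to 2.12) included 0. The macrophage markers summed to 2333 and 317 CPM in these cells, with 51.3 (28.0 to 86.0) and 25 (14.6 to 40.0) *Csf1r* UMIs per 1000 of theirs, which likewise hold the ratios of macrophage-like cells. The part of these markers in the *Csf1r* ratios of the 3 classes was not tested.

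**Figure D5:**
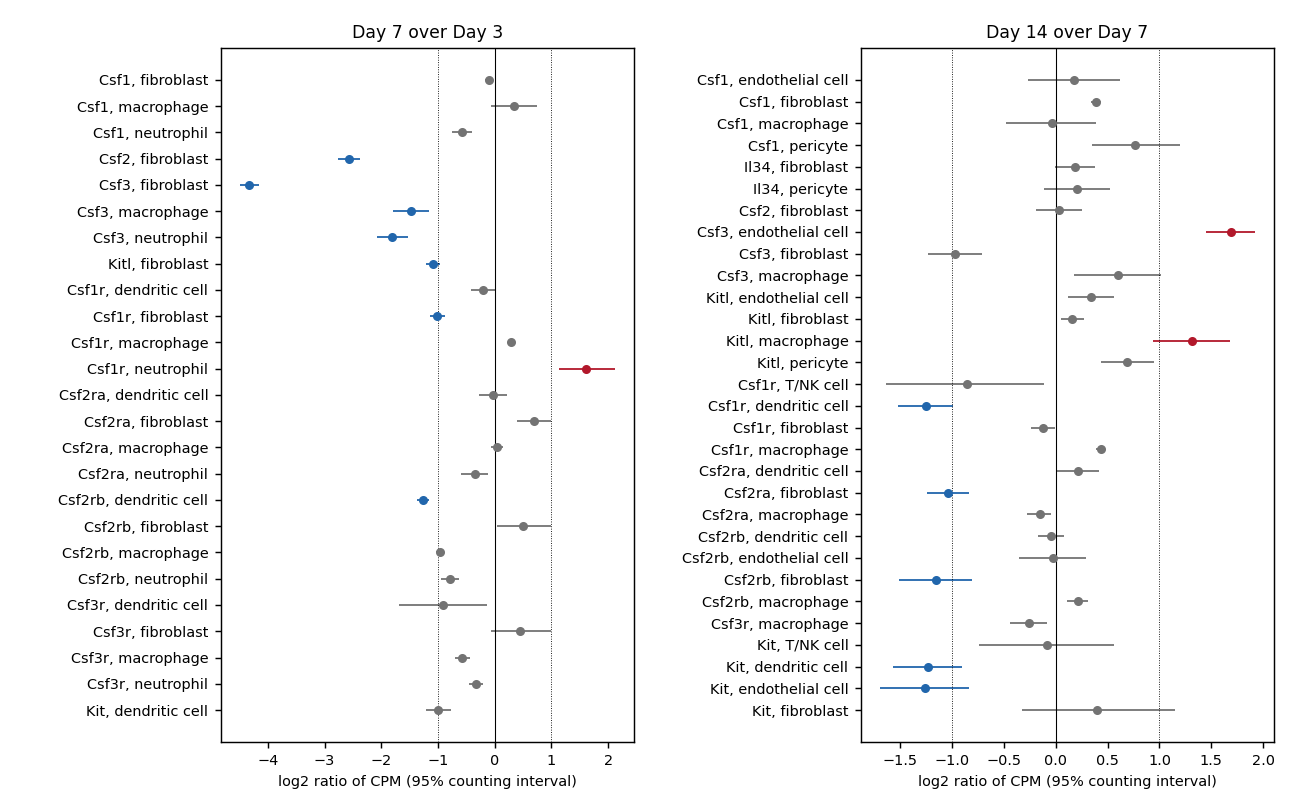
Log2 ratios of CPM between libraries (left, Day 7 over Day 3, and right, Day 14 over Day 7) for each gene and class with at least 50 cells and 20 UMIs in each library, with 95% counting intervals. Coloured points are past 2-fold. *Csf3* of fibroblast-like cells (-4.33) lies farthest to the left and *Csf3* of endothelial cell-like cells (1.68) is the only ligand ratio of that class past 2-fold.

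The wider pathway was followed in 32 further genes, which included interleukin 3 and 5 with their receptors, the JAK and STAT proteins that these receptors use, their feedback inhibitors and the transcription factors of myeloid cells. In macrophage-like cells, which held more UMIs of the members than any other class, 27 of the 32 had at least 20 UMIs over Days 3 and 7. Of these, 0 were past 2-fold higher (12.1% of all genes) and 6 lower (5.1% of all genes), with a median log2 ratio of -0.21 beside 0.00 for all genes. *Cish* and *Socs1*, feedback inhibitors that cytokine signals switch on, had 53.3 and 13.6 CPM on Day 3 and 25.6 and 5.55 CPM on Day 7. *Il3ra*, the alpha chain of the interleukin 3 receptor, had 36.9 and 16.4 CPM. *Cebpb*, a transcription factor of activated macrophages, had 5529 and 1577 CPM, a log2 ratio of -1.81 (-1.83 to -1.79). *Cebpe*, a factor of granulocyte maturation, had 30 and 14 UMIs, and *Sdc1*, whose product binds interleukin 34, had 48.1 and 23.9 CPM. Most of these calls were also made in other classes. *Cebpb* was past 2-fold lower in fibroblast-like, neutrophil-like and dendritic cell-like cells too. So were *Il3ra* and *Socs1* in fibroblast-like cells, *Cish* in neutrophil-like and dendritic cell-like cells and *Sdc1* in dendritic cell-like cells. The *Chil3* and *Arg1* cluster held 2098 of 2689 macrophage-like cells on Day 3 and 789 of 9001 on Day 7. The part of this shift in the pathway ratios was not tested.

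From Day 7 to Day 14, 26 of the 32 genes had at least 20 UMIs in macrophage-like cells. *Socs1* was the 1 gene past 2-fold higher (5.55 and 12.3 CPM), where 5.4% of all genes were, and *Sdc1* the 1 past 2-fold lower (23.9 and 8.86 CPM), where 6.41% were, with a median log2 ratio of 0.04 beside -0.11 for all genes.

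The genes whose pattern was most like each member were ranked by Pearson's correlation of log2(CPM + 1) over 21 groups of class and day, among 7137 genes. The groups share 3 libraries, so the values describe likeness only. *Csf3r* was most like *Clec4e* (0.98), *Ccl3* (0.97) and *Clec4d* (0.97), and *Csf2ra* was most like *Ptafr* (0.97), *Plek* (0.96) and *Lilr4b* (0.96). For *Csf1r* the leading gene was *Clec4a1* (0.93), for *Csf2rb* *Nuak2* (0.92) and for *Kit* *Serpinb6b* (0.88). Among the ligands, *Kitl* was most like *Gng11* (0.93), *Il34* like *Ano1* (0.92), *Csf3* like *Noct* (0.89), *Csf1* like *F3* (0.84) and *Csf2* like *Il1rl1* (0.78).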

How the data were processed

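Single-cell libraries of wounded mouse skin were made with the Chromium Next GEM 3' kit v3.1 (dual index), 1 library per day. Per the labels, the authors' processing notes name Cell Ranger 6.0.0 and the mm10 build, and the annotation release was not given in the sources used here. The deposited tables hold raw UMI counts per gene and barcode, as made by the authors, with no normalization. On Days 3, 7 and 14 the number of barcodes was 5158, 22924 and 16611, and the total depth was 38133650, 120940799 and 112713257 UMIs.

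Cells with at least 500 UMIs, at least 200 genes and at most 10% mitochondrial UMIs were kept (40492 cells). Each cell was scored by the share of simulated doublets among its 50 nearest neighbours, and the highest scores were removed up to 0.5 of an expected rate of 0.8% per 1000 barcodes, which removed 92, 1978 and 962 cells. Clustering (scikit-learn 1.9.0, leidenalg 0.10.2, Python 3.11.15) used 2000 variable genes, 30 principal components, 15 neighbours and a resolution of 1, and left out 157 genes (the members, the pathway genes, *Gm42418* and the genes of mitochondria and ribosomal proteins). Counts were summed per library and class, and CPM, exact intervals (scipy 1.17.1) and ratios were computed. With 1 library per day no test across days was made. Thinning drew 500 UMIs per cell. Ratios were called past 2-fold for genes with at least 20 UMIs over both libraries, in classes of at least 50 cells in each. The scripts were tested on simulated data. All 10 members and the 32 pathway genes are named by a fixed list, with values for pathway genes past 2-fold in macrophage-like cells and the 3 most similar genes per member computed. The members and lists were chosen with earlier results of these data known, and the rule that scores clusters into classes was set after the clusters had been seen.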

Additional observations from a re-analysis of the deposited data

Results flagged for a closer look

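In 3 genes the ratio between 2 libraries went past 2-fold in opposite directions in different classes. The difference was not tested in any of them, since each day is 1 library. In fibroblast-like cells the call was lost for *Csf1r* under 4 of the 10 alternatives (log2 ratio up to -0.26) and for *Kitl* under 2 (up to -0.86). That of *Kit* in endothelial cell-like cells was lost under 1 (-0.91). The ratios of *Kitl* in macrophage-like and *Kit* in pericyte-like cells were not recomputed. *Csf1r* from Day 3 to Day 7 had a log2 ratio of 1.62 in neutrophil-like cells and -1.01 in fibroblast-like cells. Within the cluster of most Day 7 neutrophil-like cells it was 1.09 (-0.07 to 2.56). The 2 fibroblast-like clusters with most Day 3 UMIs went with their class, at -1.31 (-1.51 to -1.11; 431 and 400 UMIs) in the *Saa3* and *Cxcl5* cluster and -0.80 (-1.10 to -0.50; 344 and 127 UMIs) in its proliferating counterpart, while the shallow cluster led by *Saa3* and *Apod* had 0.69 (-0.54 to 2.20; 6 and 49 UMIs). *Kitl* from Day 3 to Day 7 had a log2 ratio of 3.03 in macrophage-like cells, where it rested on 8 and 134 UMIs, and -1.09 in fibroblast-like cells. Within the macrophage-like *Mmp12* and *Arg1* cluster it was 0.99 (-0.95 to 4.07; 2 and 46 UMIs), under 2-fold. The *Chil3* and *Arg1* cluster went with the class, at 0.510 and 3.27 CPM (5 and 7 UMIs). The fibroblast markers in macrophage-like cells summed to 425 CPM on Day 3 and 3932 CPM on Day 7. Per 1000 UMIs of these markers there were 1.58 and 1.39 *Kitl* UMIs, and the part of the markers in the ratio was not tested. *Kit* from Day 7 to Day 14 had a log2 ratio of 1.78 in pericyte-like cells (0.22 to 3.79; 4 and 21 UMIs), against -1.23 in dendritic cell-like cells and -1.25 in endothelial cell-like cells.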

How the results depend on the processing

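Over 10 alternatives, the 80 ratios of the members with at least 20 UMIs and 50 cells in each library were recomputed. Calls past 2-fold with fewer UMIs in 1 library were not. From Day 3 to Day 7 these include *Il34* in fibroblast-like and *Kitl* in macrophage-like cells. From Day 7 to Day 14 they include *Csf3r* in fibroblast-like, *Csf2* in T and NK cell-like, and *Csf3* and *Kit* in pericyte-like cells. Of the 21 recomputed ratios past 2-fold, 14 stayed past it under every alternative, 7 did not under at least 1, and 0 were reversed. The 7 reached -0.26 (*Csf1r*) and -0.86 (*Kitl*) in fibroblast-like cells from Day 3 to Day 7, -0.72 (*Csf2ra*) and -0.78 (*Csf2rb*) there from Day 7 to Day 14, -0.997 for *Csf3r* over all cells, -0.91 for *Kit* in endothelial cell-like cells and -0.28 for *Csf1r* in dendritic cell-like cells. The cause was not tested. Each alternative kept the direction of between 73 and 79 of the 80 ratios. Between 0 and 8 ratios were newly past 2-fold under an alternative. The most were with the mean of per-cell CPM (8), at least 500 genes per cell (7) and called doublets kept (6). *Kitl* over all cells from Day 3 to Day 7 had a log2 ratio of 1.22 as the mean of per-cell CPM, against -0.40.

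In fibroblast-like cells from Day 3 to Day 7, scaling without the 50 most abundant genes gave -2.34 for *Csf2*, -4.10 for *Csf3* and -0.86 for *Kitl*, the mean of per-cell CPM gave -2.81 for *Csf2*, and doublet removal at the full expected rate gave -2.27 for *Csf2* and -4.56 for *Csf3*. That removal gave 1.32 for *Csf3* in endothelial cell-like cells from Day 7 to Day 14, and a resolution of 0.5 gave -1.96 for *Kit* in dendritic cell-like cells. With at least 1 UMI over both libraries, 23.9% of genes were past 2-fold higher from Day 3 to Day 7, and 19.9% higher and 13.8% lower from Day 7 to Day 14. Scaling by the median of ratios moved the ratios by a median of 0.10.

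Of 414 recomputed shares of UMIs held by a class, 102 lay outside the counting interval of the reported share, as did 74 of 105 shares of cells when thinned to 1000 UMIs. Of 56 recomputed background shares of genes, 38 moved by over 1.5 times. No paired analysis was possible because every library is replicate 1 of its day, and no replicate could be left out for the same reason.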
